A study of Mus musculus with 8 samples.

Results

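Far1 and Tmem87b are 2 of the 4 genes whose splicing entries in mouse epidermis include a pair of mutually exclusive exons, and the only ones of the 4 in which both exons of the pair have the same length. They were chosen by name as the equal-length pairs among genes already listed for a difference in splicing, so their change in exon use is given here as a description, with no test. They make up 2 of 236 genes and 19 of 1203 entries in the authors' deposited MAJIQ table of splicing, and each has 1 entry among the 21690 genes of the expression table. Epidermis was taken from the back skin of pups at postnatal day 5 and sequenced as RNA in 8 libraries. The 4 experimental libraries came from K5rTA tetOCre; Esrp1flox/flox; Esrp2-/- pups. In these, doxycycline turns on Cre recombinase under a transactivator driven by the keratin 5 promoter, which is active in basal keratinocytes. The 4 control libraries came from Esrp1flox/flox; Esrp2-/- pups, for which the labels list neither transgene. Doxycycline chow was given to the mothers of both groups from embryonic day 17, and both groups lack Esrp2 by genotype. The groups thus differ in the transgenes and the Esrp1 deletion they bring about, and neither group is wild type.

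ESRP1 and ESRP2 are epithelial RNA-binding proteins that bind GU-rich sequence and set which exons are kept in epithelial transcripts. Mutually exclusive exons are neighbours of which a mature transcript normally carries one or the other, so that a switch exchanges a stretch of protein rather than removing it. FAR1 is a peroxisomal fatty acyl-CoA reductase, which makes the fatty alcohols needed for ether lipids such as plasmalogens. Its relative FAR2 makes fatty alcohols in skin, where sebaceous glands use them for wax esters. TMEM87B is a membrane protein of the Golgi that belongs, with TMEM87A, to a family with a GOLD domain, and has been linked to transport of proteins from endosomes back to the Golgi.

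The Far1 exons are shown because they are the sequences exchanged between transcripts of this gene. They are read from the GENCODE M21 transcripts of the GRCm38 build, 5′ to 3′. Capitals mark the positions at which the exons differ when laid over each other from the first base without gaps.
Far1 upstream exon, chr7:113553642-113553813, plus strand: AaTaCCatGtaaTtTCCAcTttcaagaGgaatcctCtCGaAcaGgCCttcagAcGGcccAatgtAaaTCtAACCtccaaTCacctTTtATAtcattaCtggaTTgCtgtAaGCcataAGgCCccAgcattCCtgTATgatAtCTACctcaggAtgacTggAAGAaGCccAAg
Far1 downstream exon, chr7:113554117-113554288, plus strand: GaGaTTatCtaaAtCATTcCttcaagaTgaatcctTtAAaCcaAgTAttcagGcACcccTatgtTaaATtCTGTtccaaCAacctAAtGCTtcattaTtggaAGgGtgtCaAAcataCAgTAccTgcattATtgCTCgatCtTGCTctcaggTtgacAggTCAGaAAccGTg

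The Far1 exons are each 172 bases long and lie 303 bases apart in the gene (ENSMUSG00000030759.16, chromosome 7, 113513834 to 113571511, plus strand). In the annotation each is exon 10 of its transcripts, and all bases of both are coding. The upstream exon is in 2 annotated transcripts and the downstream exon in 1. Between the exons 103 of 172 positions are identical, or 59.9%. Of the 58 codons that the exons touch, 14 are the same, 13 differ but encode the same amino acid, and 31 encode another one. Of the 69 differing bases 20, 17 and 32 fall on codon bases 1, 2 and 3, in that order. Because 172 is not a multiple of 3, a transcript that carried both exons, 344 bases, or neither would be out of frame after them.

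The Tmem87b exons are each 72 bases long and lie 1512 bases apart (ENSMUSG00000014353.15, chromosome 2; the GENCODE M21 gene runs from 128818118 to 128854261, plus strand). At 72 bases, both exons spliced together without the intron, or neither, would keep the frame by length, unlike in Far1. In the splicing entries the exons are joined only through the retained intron given below, and its reading frame was not examined. The upstream exon with these ends is coding in 1 annotated transcript. The downstream exon is present in 1 transcript of GENCODE M21, which has no annotated coding sequence and also carries the upstream exon with another 3′ end. G and C make up 56.9% of the downstream Tmem87b exon, and 43.6% of the upstream and 39.5% of the downstream Far1 exon. Words of the GU-rich kind that ESRPs bind were counted on the transcript strand. The Far1 exons hold no GGTGG, no TGGTG and no GTGG, a word inside GGTGG. These words are in 21.0%, 30.6% and 65.8% of the 634 internal coding exons of 172 bases in the annotation. The downstream Tmem87b exon ends in CTGGTGG, which holds all 3 words once, overlapping. Of 1216 internal coding exons of 72 bases, GGTGG is in 7.57%, TGGTG in 11.8% and GTGG in 30.5%. The introns on either side were not searched.

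**Figure D1:**
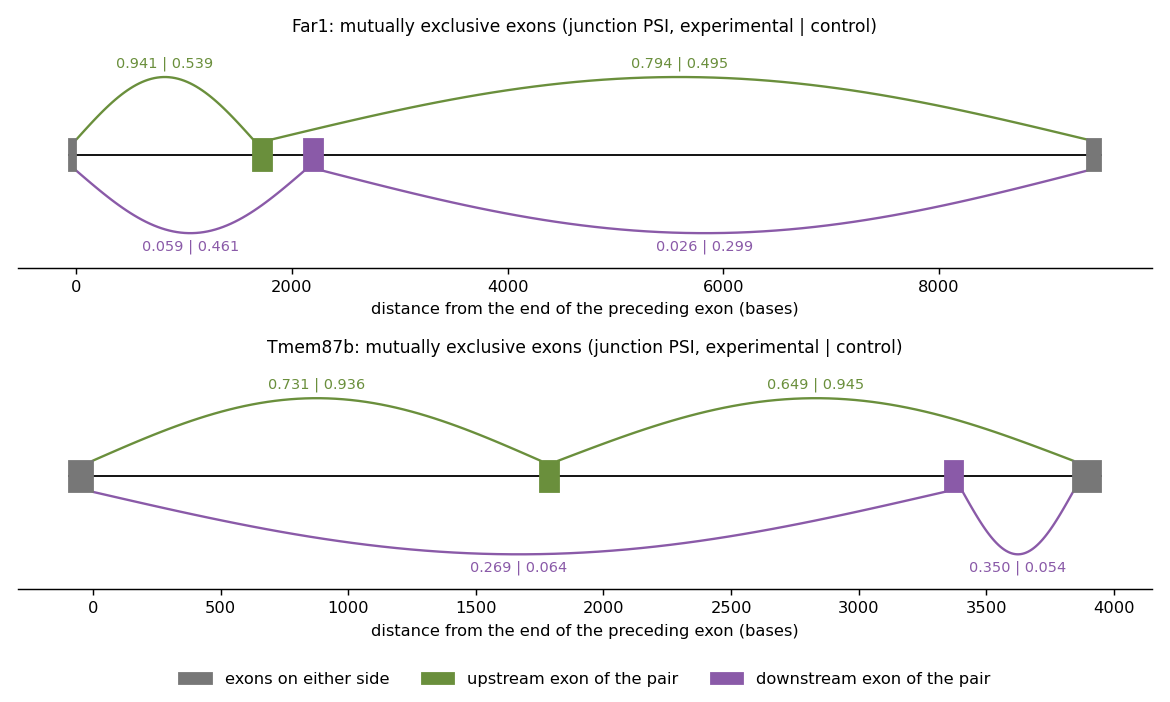
Map to scale of the mutually exclusive exons of Far1 (top) and Tmem87b (bottom), with distance in bases from the end of the preceding exon on the x axis. Arcs are junctions, labelled with the authors' group PSI in experimental and then control epidermis; in Far1 the upstream exon has the higher PSI in experimental epidermis (0.941 and 0.539 from the preceding exon), and in Tmem87b the downstream exon does (0.269 and 0.064).

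In Far1 the upstream exon took nearly all reads from the preceding exon in experimental epidermis, while control epidermis used both exons. PSI is the fraction of reads leaving or entering an exon that take a given junction. It was estimated by the authors with MAJIQ for each group, so no value per library or SD can be given. From the preceding exon, the junction to the upstream exon had a PSI of 0.941 in experimental and 0.539 in control epidermis. The junction to the downstream exon had a PSI of 0.059 in experimental and 0.461 in control epidermis. MAJIQ's expected differences, experimental minus control, were 0.413 and -0.413, each with a posterior probability of 1.0 of a difference of at least 0.15. The expected difference is an average over MAJIQ's posterior and need not equal the difference of the rounded PSI values.

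Seen from the following exon, the Far1 switch had the same direction. The junction from the upstream exon had a PSI of 0.794 in experimental and 0.495 in control epidermis, an expected difference of 0.301. The junction from the downstream exon had 0.026 in experimental and 0.299 in control epidermis, an expected difference of -0.284. These PSI values sum to 0.82 in experimental and 0.794 in control epidermis, so that 0.18 and 0.206 of the reads into the following exon used routes that are not among the entries for Far1. As a share of the pair alone, the downstream exon made up 0.0317 in experimental and 0.377 in control epidermis at this end, and 0.059 and 0.461 at the preceding exon.

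In Tmem87b the switch ran the other way along the gene. Its expected difference was the smaller of the pair of genes at the preceding exon and close to that of Far1 at the following exon. From the preceding exon, the junction to the downstream exon had a PSI of 0.269 in experimental and 0.064 in control epidermis, an expected difference of 0.197. The junction to the upstream exon had 0.731 in experimental and 0.936 in control epidermis. The posterior probability of a difference of at least 0.15 was 0.859 for this pair of junctions. Into the following exon, the downstream exon had a PSI of 0.35 in experimental and 0.054 in control epidermis, and the upstream exon 0.649 and 0.945. The expected differences were 0.293 and -0.293, each with a posterior probability of 1.0. The upstream exon thus remained the more used one in both groups at both ends.

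MAJIQ also listed retention of the intron between the Tmem87b exons, counted from the end of a longer form of the upstream exon and marked in the authors' deposited table as de novo. Among reads leaving the upstream exon, the intron (128839255 to 128840731) had a PSI of 0.483 in experimental and 0.299 in control epidermis, and the spliced junction to the following exon had 0.517 and 0.701. The expected difference for the intron was 0.174 with a probability of 0.676 of a difference of at least 0.15. Among reads entering the downstream exon, the same intron had 0.681 in experimental and 0.878 in control epidermis, and the junction from the preceding exon had 0.319 and 0.122, an expected difference of 0.188 with a probability of 0.77. The intron's share was therefore higher in experimental epidermis at the upstream exon and lower at the downstream exon. Each PSI is a share of a different set of reads, and neither gives the amount of intron. A transcript that keeps this intron holds the longer upstream exon and the downstream exon together. It can also use the junction from the downstream to the following exon. The PSI of that junction, 0.35 in experimental and 0.054 in control epidermis, can thus include transcripts with both exons. To that extent the Tmem87b exons are not strictly mutually exclusive.

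**Figure D2:**
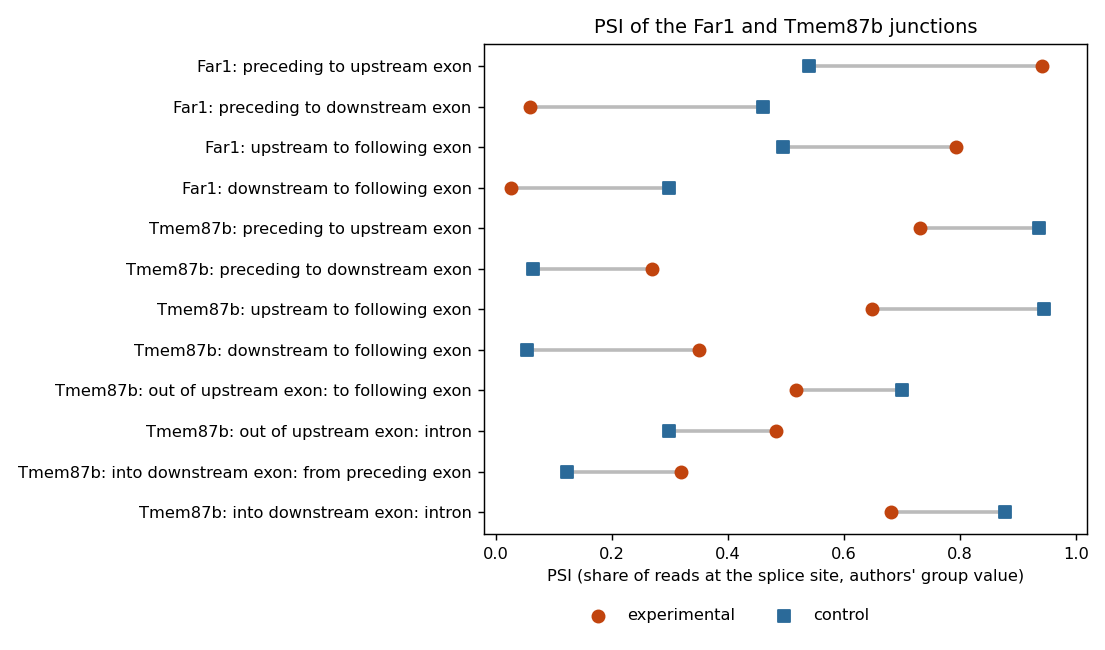
PSI of the 12 distinct junctions and introns of Far1 and Tmem87b, on the x axis, for experimental (circles) and control (squares) epidermis as the authors' group values. Far1 moves toward the upstream exon in experimental epidermis, with 0.941 against 0.539, and Tmem87b toward the downstream exon, with 0.35 against 0.054.

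Of the 12 distinct junction and intron values of the pair of genes, 4 of 4 in Far1 and 2 of 8 in Tmem87b had a probability of at least 0.95. In the MAJIQ data as a whole, 77.1% of 851 distinct values did. Since the members were chosen from this table, nothing is read from that count. The largest absolute expected difference of a gene ranged from 0.156 to 0.974 over 236 genes, with a median of 0.37. Far1, at 0.413, ranked 93rd and Tmem87b, at 0.293, ranked 171st.

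The other mutually exclusive pairs were those of Fgfr2 and Fgfr3, fibroblast growth factor receptors whose IIIb and IIIc exons are the best known ESRP targets. A search of all junction coordinates for exons that share both neighbours found the same 4 pairs and no other. As a share of the pair at the preceding exon, the downstream exon made up 0.928 in experimental and 0.00538 in control epidermis for Fgfr2, and 0.797 and 0.0101 for Fgfr3. For Tmem87b these shares were 0.269 and 0.064, and for Far1 0.059 and 0.461. These shares leave out reads from the preceding exon that took other routes. Such reads made up 0.318 in experimental and 0.256 in control epidermis for Fgfr2, and 0.517 and 0.405 for Fgfr3. In Far1 and Tmem87b the pair took all reads from that exon. Fgfr2, Fgfr3 and Tmem87b thus moved toward the downstream exon and Far1 toward the upstream one. In both fibroblast growth factor receptors the more used exon of the pair differed between the groups. In Far1 and Tmem87b the upstream exon was the more used one in both groups. Identity in a gapped alignment was 61.3% for the Far1 pair, 57.1% for Fgfr2 and 50.6% for Fgfr3. The exons of the Fgfr2 pair are 148 and 145 bases long and those of Fgfr3 151 and 145. With 1 PSI per group no test of the differences between genes was possible.

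**Figure D3:**
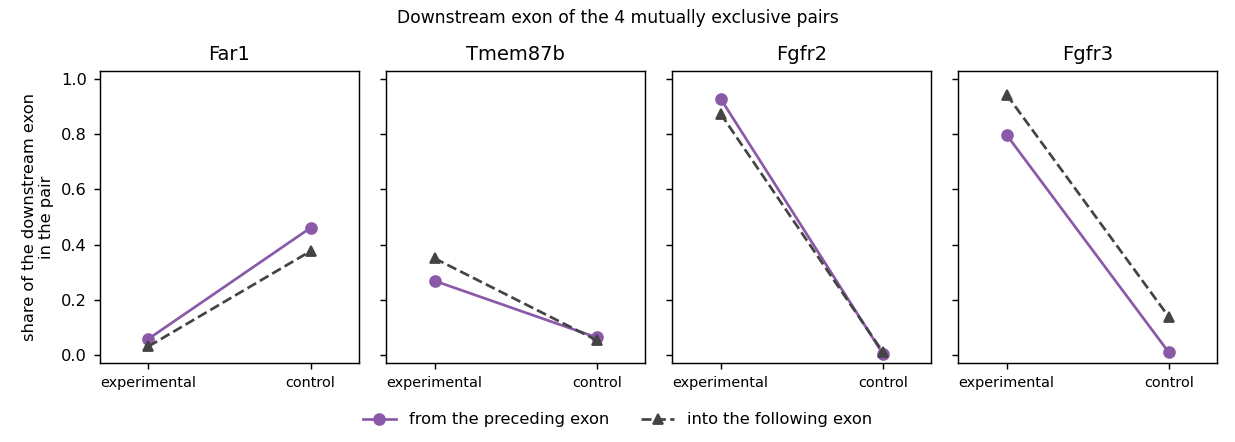
Share of the downstream exon within each mutually exclusive pair (y axis, 0 to 1) in experimental and control epidermis for Far1, Tmem87b, Fgfr2 and Fgfr3. Solid lines are junctions from the preceding exon and dashed lines junctions into the following exon, from the authors' group PSI; in Far1 alone of the 4 genes is the share lower in experimental epidermis (0.059 and 0.461 at the preceding exon).

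The level of the whole gene was measured apart from splicing. Levels are TPM, a share of transcripts corrected for length, and a gene that does not exceed 1 TPM is listed at 0. TPM keeps no sequencing depth, which is therefore unknown. Libraries are numbered in the order of the table, and between 10401 and 11640 genes per library lay above 1 TPM. Esrp1, the deleted gene, stood at 65.0, 49.8, 75.6 and 66.5 TPM in experimental libraries and at 135, 131, 133 and 162 TPM in control libraries. Esrp2, null by genotype in both groups, read 4.98, 3.25, 5.28 and 4.22 TPM in experimental libraries and 3.07, 0, 2.14 and 3.31 TPM in control libraries. Keratinocyte markers summed to between 59584 and 91511 TPM in experimental libraries and between 46842 and 62538 TPM in control libraries. The endothelial markers Pecam1, Cdh5 and Kdr were listed at 0 in every library.

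Far1 read 6.83, 5.25, 6.22 and 9.44 TPM in experimental libraries and 18.6, 17.1, 8.92 and 7.55 TPM in control libraries. Control libraries 1 and 2 lay above all others, while control libraries 3 and 4 lay within the range of the experimental ones, so the groups overlapped. The means were 6.94 ± 1.79 TPM in experimental and 13.1 ± 5.63 TPM in control libraries (SD, n = 4 each). Far1 had a log2 change of -0.76 (SE 0.30), which did not pass over all genes (limma adjusted p = 0.223, unadjusted p = 0.0281). By exact two-sided permutation p was 0.0857, where the smallest that 4 against 4 libraries allow is 0.0286. At an adjusted p under 0.05, 2.46% of the 10682 genes in the fit passed, 0.917% being higher and 1.54% lower in experimental epidermis. That balance turned with the scaling, since 283 genes were higher and 102 lower with median centring, and 269 and 117 with quantile normalization, against 98 and 165. The median gene had a log2 change of -0.18, which became 0.03 when each library was centred on its median gene, and Far1 then had -0.55.

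The Far1 difference depended on which control libraries were used. Leaving out control libraries 3 and 4 gave -1.28 on the log2 scale (SE 0.22, limma adjusted p = 0.00798), and leaving out control libraries 1 and 2 gave -0.24 (SE 0.24, limma adjusted p = 0.598). Control libraries 1 and 2 had the most genes above 1 TPM, 11640 and 11371, against 11024 and 10523 in control libraries 3 and 4. Experimental libraries had 10401 to 11077. The expression values are marked as not corrected for batch, and no label gives a batch. The part of batch in the Far1 difference was not tested. The control libraries also differed in markers of other cell types and of cycling cells. The 9 sebaceous gland markers, which include Far2, summed to 152, 123, 81.2 and 122 TPM in experimental libraries. In control libraries they summed to 502, 474, 217 and 205 TPM. Of the 9, 2 were lower at a limma adjusted p under 0.05, against 1.54% of all genes tested. No tested gene of the other marker sets passed in either direction. The 6 cycling cell markers summed to 25.2, 29.1, 27.2 and 21.1 TPM in experimental libraries and to 118, 71.4, 19.6 and 6.36 TPM in control libraries. The 6 Langerhans cell and macrophage markers summed to 189, 391, 258 and 321 TPM in experimental libraries and to 534, 529, 315 and 141 TPM in control libraries. The 6 fibroblast markers, of which Lum and Pdgfra were at 0 throughout, summed to 2.94, 3.29, 1.06 and 0 TPM in experimental libraries and to 29.6, 6.57, 1.10 and 0 TPM in control libraries. All 4 sums were highest in control libraries 1 and 2, as Far1 was, and their part in the Far1 difference was not tested. The 5 melanocyte markers were highest in control library 1 alone, at 143 TPM, against 28.1 to 75.6 TPM in experimental and 32.4 to 57.3 TPM in the other control libraries. In bulk tissue, fewer cells of a type and less RNA per cell cannot be told apart. The 6 hair follicle markers instead were highest in control library 4, with sums of 8741, 1130, 5834 and 4596 TPM in experimental libraries and 4441, 9514, 11041 and 32462 TPM in control libraries. Far1 is also overlapped by Far1os, an antisense gene on the minus strand (113530489 to 113564987) that spans both exons of the pair. The labels do not say that the libraries kept strand, and without strand the reads of the 2 genes cannot be told apart outside of junctions.

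Tmem87b read 7.60, 4.84, 8.04 and 9.74 TPM in experimental libraries and 9.18, 7.61, 8.75 and 9.31 TPM in control libraries. Experimental library 2 was the lowest and experimental library 4 the highest of all 8, and the groups overlapped. The means were 7.55 ± 2.03 TPM in experimental and 8.71 ± 0.776 TPM in control libraries (SD, n = 4 each). Its log2 change of -0.21 (SE 0.21) was near that of the median gene and did not pass (limma adjusted p = 0.615). The sign turned after quantile normalization, with 0.0285 (limma adjusted p = 0.9504). By exact two-sided permutation p was 0.343. Neither Far1 nor Tmem87b is among the 748 genes of the authors' deposited differential expression table, all of which have a negative log2 fold change.

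The levels of the closest relatives of the members were also read. Far2 stood at 5.89, 5.54, 2.69 and 5.04 TPM in experimental libraries and at 44.8, 43.9, 13.8 and 8.85 TPM in control libraries. All 4 experimental libraries lay below all 4 control libraries, and control libraries 1 and 2 were again the highest. The log2 change of Far2 was -2.06 (SE 0.48), just short of the threshold (limma adjusted p = 0.0566). In the authors' deposited table its log2 fold change was -2.20 with an adjusted p of 0.000149; Esrp1 has -0.98 there. Tmem87a read 13.6, 12.1, 16.6 and 16.9 TPM in experimental libraries and 20.6, 18.9, 18.5 and 20.3 TPM in control libraries, without overlap. Its log2 change of -0.39 (SE 0.16) did not pass (limma adjusted p = 0.255). Groups did not overlap for 12.6% of all genes tested. On this length-corrected scale Tmem87a had the higher mean level of the TMEM87 pair in both groups, 14.8 ± 2.35 against 7.55 ± 2.03 TPM in experimental and 19.5 ± 1.01 against 8.71 ± 0.776 TPM in control libraries (SD, n = 4 each).

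**Figure D4:**
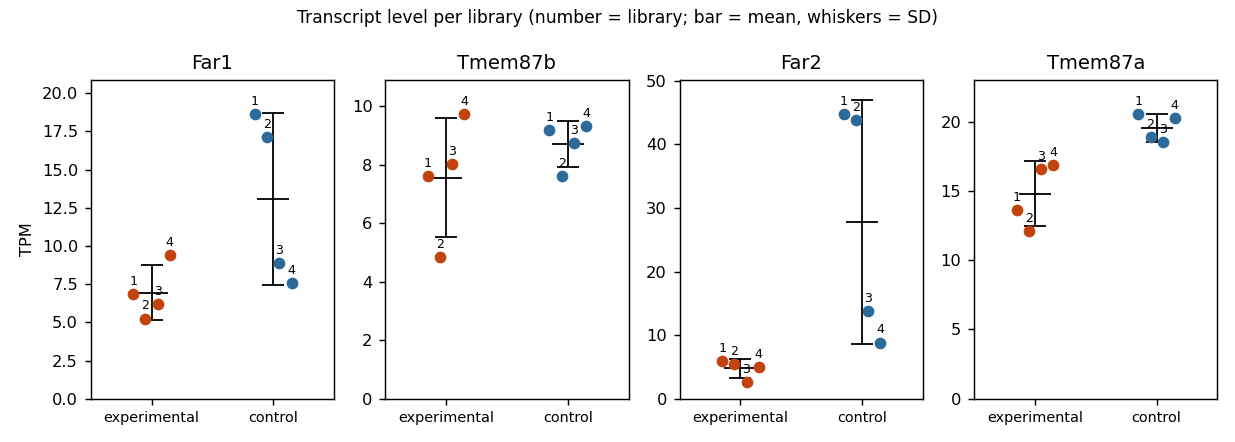
Level in TPM (y axis, from 0) of Far1, Tmem87b and their relatives Far2 and Tmem87a in each library, with experimental libraries left of control libraries. Points are libraries with their numbers, and bars with whiskers are the mean and SD; Far1 and Far2 are highest in control libraries 1 and 2 (18.6 and 17.1 TPM for Far1), while Tmem87b lies between 4.84 and 9.74 TPM in all 8.

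Genes of ether lipid and fatty alcohol synthesis, with peroxisome biogenesis factors, did not pass as single genes. Of 29 tested members of this list 0 passed limma's adjusted threshold in either direction, against 2.46% of all genes. At an unadjusted p under 0.05, 1 was higher and 6 were lower, among them Far1 and Far2. Of all genes tested 16.9% had an unadjusted p under 0.05, 3.54% higher and 13.4% lower. The median log2 change of the list was -0.30, against -0.18 for all genes tested, and groups did not overlap for 7 of the 29, against 12.6% of all genes. The list's median was -0.08 after centring on the median gene. After Far2, the members of lowest p were a pair of peroxisome biogenesis genes. Pex3, which encodes the membrane anchor that receives new peroxisomal membrane proteins, read 37.0, 34.7, 38.6 and 46.7 TPM in experimental libraries and 27.8, 24.8, 18.9 and 18.1 TPM in control libraries (log2 change 0.79, SE 0.19, limma adjusted p = 0.0576). Pex5, the receptor that carries matrix enzymes into the peroxisome, read 7.35, 6.54, 8.38 and 6.98 TPM in experimental libraries and 16.1, 16.0, 10.8 and 11.03 TPM in control libraries (log2 change -0.78, SE 0.19, limma adjusted p = 0.0614). Neither overlapped between groups. With each library centred on its median gene, the log2 change of Pex3 was 1.01 (limma adjusted p = 0.00258) and that of Pex5 was -0.57 (limma adjusted p = 0.0360). Gnpat and Agps, the enzymes that start ether lipid synthesis in the peroxisome, averaged 16.2 ± 3.29 and 1.34 ± 0.185 TPM in experimental libraries. In control libraries Gnpat averaged 14.6 ± 2.50 TPM and Agps read 3.48, 2.88, 1.55 and 0 TPM (SD, n = 4 each). Gnpat and Agps were picked for their role in the pathway and had limma adjusted p = 0.751 and 0.442.

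Genes of the TMEM87 family and of transport from endosomes to the Golgi likewise did not pass. Of 33 tested members 0 passed limma's adjusted threshold, against 2.46% of all genes. At an unadjusted p under 0.05 there were 10, all of them lower, against 16.9% of all genes in either direction and 13.4% lower. Log2 changes were below 0 for 31 of the 33, with a median of -0.28, against a median of -0.18 for all genes tested. Since that median is below 0, most genes tested were also lower on this scale. The share of all genes below 0 was not counted under any scaling. Groups did not overlap for 9, against 12.6% of all genes. After each library was centred on its median gene 22 of the 33 were below 0, with a median of -0.07, against 0.03 for all genes. After quantile normalization 21 were below 0, with a median of -0.11, against 0.02 for all genes. Snx1, a sorting nexin of the retromer coat, read 6.98, 7.17, 8.004 and 8.53 TPM in experimental libraries and 22.3, 19.2, 14.1 and 8.92 TPM in control libraries (log2 change -0.92, SE 0.26, limma adjusted p = 0.0983). Gpr107, a Golgi relative of TMEM87B, read 7.37, 5.91, 9.10 and 8.90 TPM in experimental libraries and 11.8, 11.7, 12.2 and 12.9 TPM in control libraries (log2 change -0.59, SE 0.17, limma adjusted p = 0.113). Wls, a relative that carries Wnt proteins to the cell surface, read 24.5, 14.5, 27.6 and 21.9 TPM in experimental libraries and 38.05, 33.0, 30.1 and 48.9 TPM in control libraries (log2 change -0.75, SE 0.23, limma adjusted p = 0.129). These 3 genes were named because they had the lowest p of the list. In each of them every experimental library lay below every control library, which that choice favours, so nothing further is read from it.

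**Figure D5:**
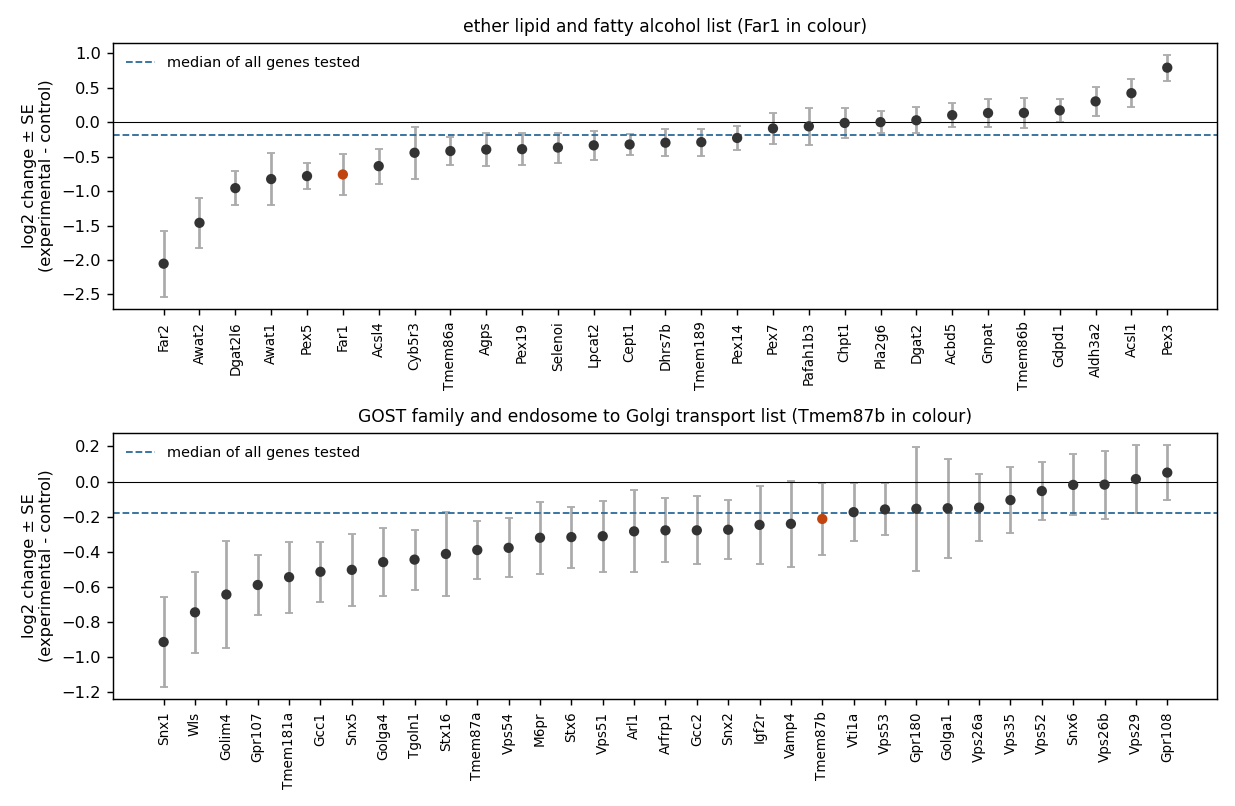
Log2 change of level with its SE (y axis, experimental minus control, log2(TPM + 1) scale) for the 29 tested ether lipid and fatty alcohol genes (top) and the 33 tested TMEM87 family and endosome to Golgi genes (bottom), ordered by change. The dashed line is the median of all genes tested, -0.18; Far1 (-0.76) and Tmem87b (-0.21) are in colour.

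The genes most like each member in level were found from the root mean square difference of centred log2(TPM + 1) values over the 8 libraries, among 7448 genes with a mean of at least 5 TPM, leaving out unnamed gene models. For Far1 they were Hsd17b12, Acp6, Zfp146, Tcf19 and Thap12, at differences of 0.144 to 0.178. Hsd17b12, which encodes the ketoacyl reductase of fatty acid elongation, read 55.8, 39.3, 58.9 and 68.8 TPM in experimental libraries and 120, 111.5, 63.0 and 64.3 TPM in control libraries. For Tmem87b they were Sirt6, Klhl7, Ahnak, Dvl3 and Kdm4a, at differences of 0.0483 to 0.0656. Sirt6, a chromatin deacetylase, read 6.41, 4.16, 6.44 and 8.17 TPM in experimental libraries and 7.74, 6.92, 7.42 and 8.37 TPM in control libraries.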

How the data were processed

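Epidermal RNA was sequenced in 8 libraries, 4 experimental and 4 control, titled as biological replicates; whether each was 1 pup is not stated, and p-values measure the spread between these libraries. Per the labels, a Qiagen RNeasy kit gave the RNA and NEBNext Ultra the libraries. Tools in the submitters' processing notes are DESeq, Salmon 0.14.0, SAMtools 1.9 and STAR, and builds are mm10 and GRCm38, with no role stated. For MAJIQ, settings and annotation are not given in the sources used here.

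As deposited, the expression table holds log2 TPM per gene and is marked as not corrected for batch. The scale was checked against the authors' mean normalized count signal per kilobase: in 4 bins of level over 401 genes the ratio, relative to the highest bin, was 0.882 to 1 when values were read as log2 TPM, and up to 1.43 when read as log2(TPM + 1). Values were read as log2 TPM with 1 TPM or less listed at 0, and turned back to TPM; the design had assumed log2(TPM + 1). The authors' deposited MAJIQ table gives PSI as a fraction per group, and an expected difference and posterior probability as a score. The authors' deposited differential expression table gives log2 fold changes, their standard errors and Wald score, p-values and the count signal. Column names carry the group but no replicate number of the labels, so libraries were assigned to groups and numbered in table order. No pair of libraries had identical values. Of 21690 identifiers 21662 matched a symbol.

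TPM was set to at least 1, transformed as log2(TPM + 1) and tested for genes with a mean of at least 1 TPM with limma 3.58.1 in R 4.3.3 (a group term alone, trended eBayes, two-sided tests, Benjamini-Hochberg adjustment over all genes). Fold changes on this scale understate those of low genes. The script was tested on simulated data. Single levels were also compared by exact permutation (scipy 1.17.1, Python 3.11.15). The sequence of the upstream Tmem87b exon and comparisons that need it are not reported here. Exon sequences were read from GENCODE M21 transcripts (GRCm38), whose exon boundaries matched all 8 mutually exclusive exons. Far1 and Tmem87b, the gene lists and the tests were chosen with earlier results of these data known. Named genes are the members, their nearest relatives, Esrp1 and Esrp2, every passing and the 3 lowest-p members of each list, and the 5 genes most like each member; Gnpat and Agps were added outside this rule for their role, after their values were seen. Alternatives covered pseudocounts of 0.5 and 0.1, other filters, centring, quantile normalization and left-out libraries.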

Additional observations from a re-analysis of the deposited data

Results flagged for a closer look

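Of 46 groups of 4 libraries checked for the genes named, 3 had 1 library far from the other 3, and chance alone gives about 1 in 20. Esrp1 stood at 162 TPM in control library 4, against 131 to 135 TPM in the other control libraries. Acp6, among the genes most like Far1 in level, stood at 8.08 TPM in experimental library 4, against 5.71 to 6.08 TPM in the other experimental libraries. Actn1, which encodes an actinin with mutually exclusive exons, stood at 86.8 TPM in control library 4, against 55.0 to 57.9 TPM in the other control libraries.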

How the results depend on the processing

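No paired analysis was possible because the columns carry no replicate number of the labels. The Far1 log2 change stayed below 0 under every alternative run, from -1.28 to -0.24, and passed only without control libraries 3 and 4 (-1.28, limma adjusted p = 0.00798); over all alternatives the adjusted p ran from 0.00798 to 0.599, and leaving out 1 library gave -0.97 to -0.57. The Tmem87b log2 change was -0.33 to -0.04 with 1 library left out and turned to 0.0285 with quantile normalization, with adjusted p from 0.432 to 0.999. Seen from the following exon, the PSI difference of the downstream exon was -0.284 in Far1 and 0.293 in Tmem87b, against -0.413 and 0.197 from the preceding exon. The 4 mutually exclusive pairs came to 2 with equal exon length. A probability of at least 0.99 left 501 of 656 MAJIQ values.

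Over all genes, 263 passed, 98 higher and 165 lower. With 1 library left out the number was 85 (without experimental library 3) to 578 (without control library 4), with 36 to 158 higher and 47 to 420 lower. Without control libraries 1 and 2 it was 544 (204 higher, 340 lower), without control libraries 3 and 4 it was 2595 (241 higher, 2354 lower), and without experimental libraries 2 and 4 it was 15 (14 higher, 1 lower). Median centring gave 385 of 10682 genes (283 higher, 102 lower), and quantile normalization gave 386 (269 higher, 117 lower). In the ether lipid list 3 members passed with median centring (Pex3, Acsl1 and Pex5), 2 with quantile normalization, 1 without control libraries 1 and 2, 13 without control libraries 3 and 4, and 0 to 5 with 1 library left out, the 5 without control library 4. The endosome to Golgi list had 33 members in the main fit. In this list 7 passed without control libraries 3 and 4, and 0 to 1 with 1 library left out, the 1 (Snx1) without control library 4. The list of genes known for mutually exclusive exons had 31 members in the main fit. In it 1 passed with median centring and 1 with quantile normalization. There were 2 without control libraries 1 and 2, 3 without control libraries 3 and 4, and 0 with 1 library left out. Each list count belongs beside the number for all genes under the same setting, such as 2595 without control libraries 3 and 4. Nothing is read from the list counts alone. The cause of these shifts was not tested. The planned word search in introns was not run.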

Other observations

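Genes known for mutually exclusive exons were also compared for level. The list includes Far1, Tmem87b, Fgfr2 and Fgfr3, whose splicing is given above, and only the level of the others is given here. Of 31 tested members of this list, chosen from textbook knowledge, 0 passed limma's adjusted threshold, against 2.46% of all genes. At an unadjusted p under 0.05, 2 were higher and 3 lower, Far1 among the lower, near the 16.9% of all genes tested. The median log2 change was -0.14, against -0.18 for all genes tested, and it was 0.07 after each library was centred on its median gene. Tpm2, a tropomyosin of the actin cytoskeleton, read 81.8, 62.1, 58.4 and 87.1 TPM in experimental libraries and 47.5, 54.9, 35.8 and 31.4 TPM in control libraries (log2 change 0.77, SE 0.22, limma adjusted p = 0.107). With each library centred on its median gene, its log2 change was 0.98 (limma adjusted p = 0.0167). Actn1 averaged 42.8 ± 7.98 TPM in experimental and 64.0 ± 15.3 TPM in control libraries (SD, n = 4 each; limma adjusted p = 0.194). Only Fgfr2, Fgfr3, Far1 and Tmem87b had a mutually exclusive pair in the splicing data used here.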
